A study of Homo sapiens with 12 samples.

Results

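The genes described here are 9 genes that are commonly read as a record of bone morphogenetic protein (BMP) signalling: ID1, ID2, ID3, ID4, MSX1, MSX2, SMAD6, SMAD9 and BAMBI. They were taken by symbol from the gene table, in which each of the 9 stands on a single identifier, and they are 9 of 35940 symbols. They were taken by name, with no threshold on a measured value. All 9 passed the filter on low counts, which left 17048 symbols for testing.

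BMPs are secreted ligands that bring type I and type II serine/threonine kinase receptors together on the cell surface. The activated type I receptor phosphorylates SMAD1, SMAD5 and SMAD9, which enter the nucleus with SMAD4 and switch on their targets. In human pluripotent cells BMP is known for opening the way to extraembryonic and mesodermal fates, while WNT signalling together with Nodal leads to primitive streak fates. Several of the 9 genes are known to answer WNT as well as BMP, among them BAMBI, MSX1, MSX2 and ID2, so a level of one of them does not by itself say which ligand the cells received.

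The cells were the human embryonic stem cell line ESI017 with a SOX2::mCitrine reporter, in which a fluorescent protein reads out the pluripotency and neural factor SOX2. Colonies were grown for 3 days on micropatterned coverslips in the basal medium N2B27, and treated colonies also received FGF8 at 200 ng/ml with WNT3A at 100, 300 or 1000 ng/ml. Treated cells were then sorted into SOX2-negative and SOX2-positive gates. The libraries were 2 SOX2-negative and 2 SOX2-positive at 100 ng/ml, 1 and 1 at 300 ng/ml, 2 and 2 at 1000 ng/ml, and 2 from control colonies in N2B27 with neither factor, for which no sort is stated. All 12 libraries come from 1 reporter line. The design describes the second library of a group as a biological repeat, and p-values measure the spread between such repeats. A BMP ligand, receptor inhibitor or BMP antagonist was not among the listed treatments, so the comparisons below set gate against gate, treatment against control and dose against dose.

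Column totals were 16474856 to 28079048 estimated counts. SOX2 stood at 1.85 to 5.98 CPM (counts scaled to a common library total) in SOX2-negative cells, 418 to 467 CPM in SOX2-positive cells and 652 to 676 CPM in controls, which matches the labels of the sort. The cells are labelled as pluripotent stem cells, and the summed level of 7 pluripotency markers was 2050 to 3235 CPM in SOX2-negative cells, 4535 to 5351 CPM in SOX2-positive cells and 5052 to 5189 CPM in controls. That sum includes SOX2, the gene of the sort. LIN28A made up 1404 to 2016, 1690 to 1830 and 3365 to 3619 CPM of it, in the same order. POU5F1 had 217 to 716 CPM in SOX2-negative cells, 990 to 1928 CPM in SOX2-positive cells and 430 to 503 CPM in controls. NANOG had 2.43 to 12.8, 30.4 to 118 and 6.70 to 10.0 CPM in that order, and PRDM14 0.412 to 2.51, 58.0 to 84.5 and 86.6 to 108 CPM. The 6 markers of definitive endoderm, SOX17, FOXA2, GATA6, PRDM1 and CXCR4 among them, summed to 789 to 1357 CPM in SOX2-negative cells, 10.6 to 20.3 CPM in SOX2-positive cells and 33.8 to 37.8 CPM in controls. By the endoderm markers the SOX2-negative gate went against the cell type label, and SOX17 was at 0 in both controls. The pluripotency marker DPPA4 had 107 to 207 CPM in SOX2-negative cells, 752 to 816 CPM in SOX2-positive cells and 356 to 393 CPM in controls. TDGF1 had 253 to 462, 348 to 411 and 14.4 to 21.3 CPM in that order. By POU5F1 and NANOG the controls lay within the SOX2-negative range, and LIN28A and TDGF1 overlapped between the gates. The 2 libraries of SOX2-negative cells at 100 ng/ml differed most from each other, with a chi-square over genes of 128 per degree of freedom, against 20.9 to 48.2 in the other pairs. For the genes read as a record of BMP signalling, some calls between gates or against control were lost without 1 of these 2 libraries. Such calls are given with and without that library. Values of the other gene lists, and of the genes most alike in level, are given with both libraries kept.

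The promoters give a first look at the members. Of the 9 RefSeq promoters (GRCh38.p14), read over the 250 bases before the annotated start, 1 held GGCGCC, a GC-rich element that SMAD1 and SMAD5 bind, and this was BAMBI with 3 matches that begin at positions -209, -196 and -181 from the RefSeq start at 28677521, a start that lies downstream of the GENCODE 29 start at 28677342, so that the last of the 3 reaches into the GENCODE gene. GGCGCC, a palindrome, stood in 16.4% of the 35116 promoters of the same length. The palindrome GTCTAGAC, which SMAD3 and SMAD4 bind, stood in 1 of the 9, SMAD6, and in 0.182% of all promoters. It begins there at position -12 from the RefSeq start at 66702236 and runs across the GENCODE 29 start at 66702228. Its core letters GTCT, counted on both strands and contained in that palindrome, were in 8 of the 9 (all but MSX1) and in 77.5% of all promoters. CTTTGAT or CTTTGAA, letters of the TCF/LEF factors of the WNT pathway, stood on either strand in 1 of the 9, ID3, and in 5.94% of all. The windows of ID2, ID3 and SMAD9 lie wholly inside the GENCODE 29 genes, and so does this ID3 match, which begins at position -179. A match describes letters and says nothing about binding in these cells. The SMAD6 and BAMBI promoters are shown because they hold these palindromes, and MSX1 and ID1 as the members with the widest and one of the narrowest differences between the gates. The windows are chr15:66701986-66702235 for SMAD6, chr10:28677271-28677345 for BAMBI (its first 75 bases), chr4:4859415-4859664 for MSX1 and chr20:31605039-31605288 for ID1, each on the plus strand and written 5′ to 3′, with GGCGCC and GTCTAGAC in capitals.
SMAD6: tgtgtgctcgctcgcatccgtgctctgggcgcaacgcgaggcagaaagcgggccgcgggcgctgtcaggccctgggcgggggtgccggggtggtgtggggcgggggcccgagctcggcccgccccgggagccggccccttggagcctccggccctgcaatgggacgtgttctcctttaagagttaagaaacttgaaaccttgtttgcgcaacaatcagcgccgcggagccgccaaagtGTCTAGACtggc
BAMBI: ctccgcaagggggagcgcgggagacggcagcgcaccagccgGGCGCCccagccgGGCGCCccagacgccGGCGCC
MSX1: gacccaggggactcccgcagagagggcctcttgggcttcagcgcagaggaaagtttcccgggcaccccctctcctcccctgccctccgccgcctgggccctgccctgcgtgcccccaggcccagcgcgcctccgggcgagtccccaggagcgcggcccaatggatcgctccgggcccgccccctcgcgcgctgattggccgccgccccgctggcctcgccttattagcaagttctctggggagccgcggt
ID1: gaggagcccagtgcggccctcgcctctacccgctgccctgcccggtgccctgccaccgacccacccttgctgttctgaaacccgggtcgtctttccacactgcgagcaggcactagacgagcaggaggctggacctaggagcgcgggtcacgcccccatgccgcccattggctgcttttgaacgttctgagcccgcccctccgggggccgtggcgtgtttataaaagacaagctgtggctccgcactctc

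Between the gates, 7 of the 9 genes were higher in SOX2-negative cells than in SOX2-positive cells and none was lower by edgeR's quasi-likelihood test (adjusted p under 0.05, doses of 100 and 1000 ng/ml averaged). Of all 17048 genes, 12.9% were called higher and 11.1% lower, 24% in all. The median log2 fold change of the 9 was 1.93, beside 0.01 for all genes. MSX1, SMAD6, SMAD9, BAMBI and MSX2 carried the wide differences, with every one of the 5 SOX2-negative libraries above every one of the 5 SOX2-positive libraries, an ordering that 12.6% of all genes showed. The 4 ID genes had fitted folds of 1.25 to 1.70. In bulk RNA of a sorted gate, fewer cells using a gene and less RNA per cell cannot be told apart. Values for a gate are listed below in the order 100 ng/ml replicates 1 and 2, 300 ng/ml, and 1000 ng/ml replicates 1 and 2. Gene positions are those of GENCODE 29 on GRCh38.

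**Figure D1:**
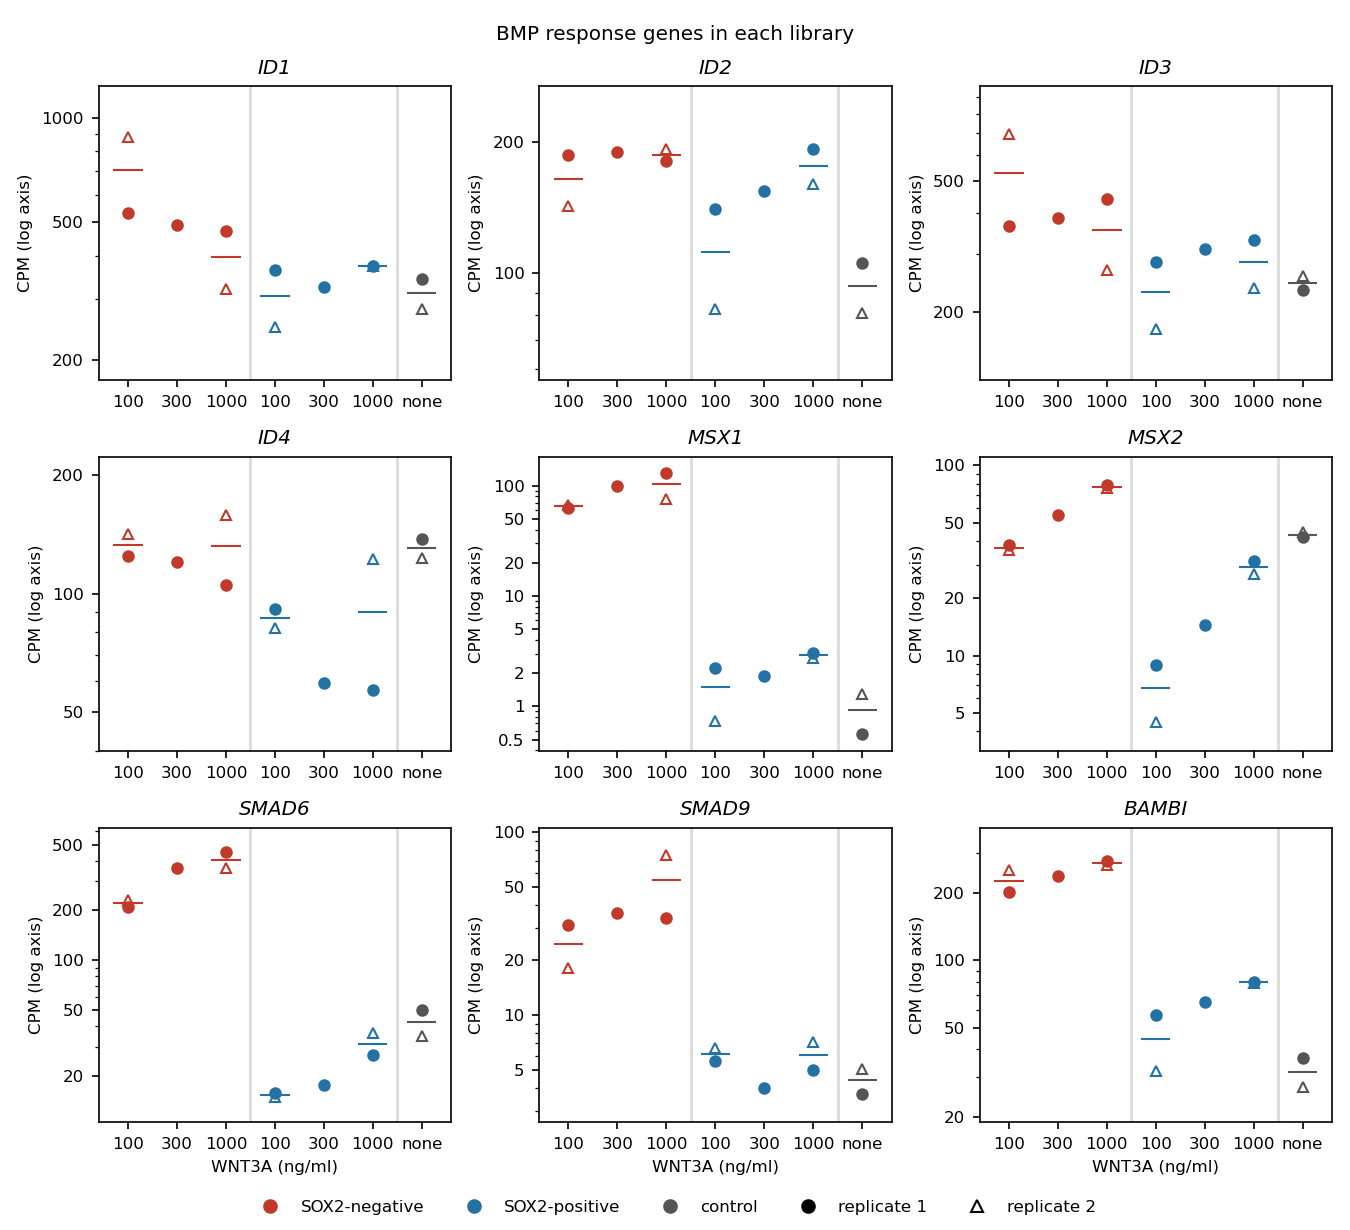
CPM of the 9 genes in each of the 12 libraries on log axes, by gate and WNT3A dose, with a bar at the mean of each group and control colonies at the right. MSX1, SMAD6, SMAD9 and BAMBI lie highest in the SOX2-negative libraries, MSX2 lies lowest in SOX2-positive cells at 100 ng/ml, and the ID genes overlap between the gates.

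SMAD6 (ENSG00000137834, chromosome 15, 66702228 to 66782848, plus strand), an inhibitory SMAD that blocks SMAD1 and SMAD5 at the receptor and is itself switched on by BMP, had 210.2, 232, 363, 450.4 and 359 CPM in SOX2-negative cells. In SOX2-positive cells it had 15.8, 15.1, 17.7, 26.6 and 36.2 CPM, and in controls 50.3 and 35.1 CPM. The lowest SOX2-negative library thus held more SMAD6 than the highest library of any other group. The difference between the gates was 3.76 ± 0.19 on the log2 scale (SE, edgeR adjusted p = 6.49e-07), a fold of 13.6 with a 95% interval of 10.2 to 18.1. Within the 5 pairs of the same dose and replicate number the ratio ran between 9.93 and 20.5.

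BAMBI (ENSG00000095739, chromosome 10, 28677342 to 28682939, plus strand), a pseudoreceptor that lacks the kinase domain and damps BMP and TGF-beta receptors, had 202, 252, 237, 278 and 266 CPM in SOX2-negative cells. It had 57.0, 32.1, 65.3, 80.4 and 78.8 CPM in SOX2-positive cells, and 36.5 and 27.1 CPM in controls. The gates did not overlap, and the SOX2-negative libraries were close to one another at every dose. The log2 difference was 2.06 ± 0.20 (SE, edgeR adjusted p = 4e-05), a fold of 4.17 with a 95% interval of 3.07 to 5.68.

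SMAD9 (ENSG00000120693, chromosome 13, 36844831 to 36920765, minus strand), the BMP receptor SMAD also called SMAD8, had 31.2, 18.03, 36.1, 34.2 and 75.6 CPM in SOX2-negative cells. In SOX2-positive cells it had 5.60, 6.64, 3.99, 5.01 and 7.10 CPM, and in controls 3.71 and 5.09 CPM. It was low outside the SOX2-negative gate, and its replicates at 1000 ng/ml lay far apart within that gate. The log2 difference was 2.59 ± 0.30 (SE, edgeR adjusted p = 0.000118), with a 95% interval of 3.83 to 9.47 for the fold of 6.02.

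Among the homeobox repressors, MSX1 (ENSG00000163132, chromosome 4, 4859666 to 4863936, plus strand), known from limb, tooth and neural border development, had 63.3, 66.8, 98.9, 130.3 and 75.2 CPM in SOX2-negative cells. It had 2.23, 0.742, 1.90, 3.07 and 2.72 CPM in SOX2-positive cells, and 0.559 and 1.28 CPM in controls. Behind these levels stand 1057 to 2450 estimated counts per SOX2-negative library, 18 to 60 per SOX2-positive library, and 11 and 35 in the controls. The log2 difference between the gates was 5.31 ± 0.35 (SE, edgeR adjusted p = 3.52e-06), the widest of the 9, and the fold of 39.7 had a 95% interval of 23.1 to 68.4. Its ratio in pairs of one dose and number ran between 27.7 and 90.0, with the lowest SOX2-positive count behind the highest ratio.

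MSX2 (ENSG00000120149, chromosome 5, 174724533 to 174730893, plus strand), a related repressor also known from amnion and trophoblast, had 37.9, 35.9, 54.7, 79.0 and 75.6 CPM in SOX2-negative cells. It had 8.98, 4.49, 14.5, 31.3 and 26.9 CPM in SOX2-positive cells, and 41.9 and 44.6 CPM in controls. Both controls lay above all 5 SOX2-positive libraries and within the range of the SOX2-negative libraries. Between the gates its log2 difference was 1.93 ± 0.21 (SE, edgeR adjusted p = 7.17e-05), a fold of 3.82 with a 95% interval of 2.79 to 5.24.

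The ID proteins are helix-loop-helix factors without a DNA-binding region, which hold E proteins back from DNA and so keep cells from differentiating. ID1 (ENSG00000125968, chromosome 20, 31605283 to 31606515, plus strand), a standard BMP readout, had 530.0, 881, 490.2, 471 and 320.4 CPM in SOX2-negative cells, 363, 250.1, 324, 374 and 375 CPM in SOX2-positive cells, and 343 and 281 CPM in controls. The gates overlapped, and at 1000 ng/ml replicate 2 was lower in SOX2-negative cells than in SOX2-positive cells. ID3 (ENSG00000117318, chromosome 1, 23557918 to 23559794, minus strand), which is often induced along with ID1, had 364, 693, 386, 439.7 and 267 CPM in SOX2-negative cells, 282, 177, 309, 329 and 237 CPM in SOX2-positive cells, and 232 and 257 CPM in controls. Both were highest in replicate 2 at 100 ng/ml. The log2 difference was 0.64 ± 0.21 for ID1 (SE, edgeR adjusted p = 0.0444) and 0.76 ± 0.25 for ID3 (SE, edgeR adjusted p = 0.0489), folds of 1.56 and 1.70. These 2 calls were at the edge of the threshold. Without replicate 2 of the SOX2-negative cells at 100 ng/ml the log2 difference was 0.43 for ID1 and 0.49 for ID3, with edgeR adjusted p = 0.0985 and 0.128. Both calls were also lost without replicate 1 of the SOX2-negative cells at 1000 ng/ml (0.177 for ID1 and 0.196 for ID3), replicate 2 of the SOX2-positive cells at 100 ng/ml (0.176 and 0.182), replicate 1 at 1000 ng/ml (0.119 and 0.0667), replicate 2 at 1000 ng/ml (0.116 and 0.163), control replicate 1 (0.066 and 0.073) or control replicate 2 (0.0662 and 0.0732). With the replicate number as a block ID3 had an adjusted p of 0.0514, and both calls were lost with no scaling, with identifiers kept apart or with only the compared groups fitted (0.0576 to 0.074).

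ID2 and ID4 did not pass the test between the gates. ID2 (ENSG00000115738, chromosome 2, 8678845 to 8684453, plus strand), which WNT as well as BMP can raise in other cells, had 187, 143, 190.1, 181 and 192 CPM in SOX2-negative cells, 140.5, 82.4, 154, 192 and 160.3 CPM in SOX2-positive cells, and 105 and 80.7 CPM in controls. Its fold was 1.25 with a 95% interval of 0.930 to 1.68 (edgeR adjusted p = 0.26). ID4 (ENSG00000172201, chromosome 6, 19837386 to 19840684, plus strand), best known from neural precursors, had 125, 141, 120.2, 105 and 158 CPM in SOX2-negative cells, 91.2, 81.8, 59.3, 57.0 and 122 CPM in SOX2-positive cells, and 137 and 123 CPM in controls. The SOX2-negative library was the higher in all 5 pairs, by ratios of 1.30 to 2.03, and the fold of 1.504 had a 95% interval of 1.06 to 2.14 (edgeR adjusted p = 0.0919). Without replicate 2 of the SOX2-positive cells at 1000 ng/ml, its highest SOX2-positive library, the adjusted p was 0.0121.

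**Figure D2:**
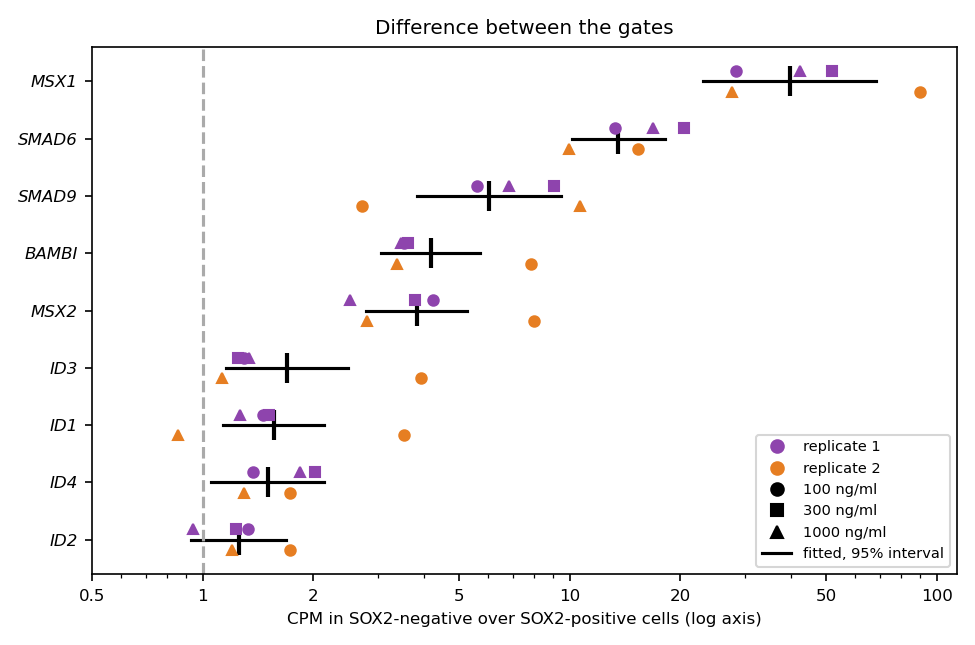
Ratio of CPM in SOX2-negative over SOX2-positive cells for each gene on a log axis, with 1 point per dose and replicate number and the fitted fold with its 95% interval in black. All 5 ratios of MSX1, SMAD6, SMAD9, BAMBI and MSX2 lie above 2.5, while those of ID1 and ID2 reach below 1 in 1 pair each.

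The next comparisons set treated cells against control colonies. The 4 comparisons share the 2 control libraries, so their values stand side by side and are not independent of one another. In SOX2-negative cells at 100 ng/ml, 6 of the 9 genes were higher than in control and none was lower (edgeR, with 12% of all genes higher, 8.68% lower and 20.6% called). At 1000 ng/ml, 5 were higher and none was lower, beside 10.7% of all genes higher, 7.1% lower and 17.8% called. Over the 3 doses, all 5 SOX2-negative libraries exceeded both controls in 6 genes (ID2, ID3, MSX1, SMAD6, SMAD9 and BAMBI), which 20.4% of all genes did.

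MSX1, SMAD6, SMAD9 and BAMBI were called higher than control at both doses in SOX2-negative cells. For SMAD6 the log2 fold change was 2.37 ± 0.25 at 100 ng/ml and 3.25 ± 0.26 at 1000 ng/ml (SE, edgeR adjusted p = 0.000127 and 2.41e-05). BAMBI stood 2.84 ± 0.29 and 3.10 ± 0.30 above control (SE, adjusted p = 0.000111 and 6.18e-05). SMAD9 stood 2.48 ± 0.42 and 3.63 ± 0.44 above it (SE, adjusted p = 0.00233 and 0.000254), and without replicate 2 at 1000 ng/ml the second value was 2.94. MSX1 differed most, by 6.09 ± 0.53 and 6.75 ± 0.54 (SE, adjusted p = 4.22e-05 and 2.41e-05). That size rests on few counts in the controls, and without control replicate 2, the one with 35 counts, the values were 6.85 and 7.51, and without control replicate 1 they were 5.66 and 6.32. MSX2 in these cells was not called at 100 ng/ml (log2 fold change -0.23, adjusted p = 0.589) or at 1000 ng/ml (0.84, adjusted p = 0.0634). At 1000 ng/ml it was called with DESeq2 (0.0237), with no filter (0.022), with only the compared groups fitted (0.0081), and in edgeR without replicate 1 (0.0347) or 2 (0.0338) of the SOX2-negative cells at 100 ng/ml or replicate 1 (0.0282) or 2 (0.028) of the SOX2-positive cells at 100 ng/ml.

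For the ID genes the calls against control moved with dose and with single libraries. ID1 was 2.26-fold higher in SOX2-negative cells at 100 ng/ml (95% interval 1.44 to 3.55, edgeR adjusted p = 0.0179), and without replicate 2 of those cells the log2 fold change was 0.76 in place of 1.18 (adjusted p = 0.084). Its call was also lost without control replicate 1 (0.0724) or control replicate 2 (0.141). ID3 was 2.16-fold higher there (95% interval 1.25 to 3.73, edgeR adjusted p = 0.0499), a call that was also lost with the replicate number as a block (0.0532). Of the 10 fits that left 1 library out it was lost in 9, all but the one without replicate 1 of those cells, at adjusted p of 0.0514 (without replicate 1 of the SOX2-negative cells at 1000 ng/ml) to 0.295 (without replicate 2 of those at 100 ng/ml). At 1000 ng/ml neither was called, with folds of 1.27 (95% interval 0.814 to 1.98) for ID1 and 1.44 (0.840 to 2.48) for ID3. ID2 was 2.01-fold higher at 1000 ng/ml (95% interval 1.32 to 3.06, edgeR adjusted p = 0.0289), and that call was lost without replicate 1 (0.0848) or replicate 2 (0.126) of those cells, control replicate 1 (0.0751) or control replicate 2 (0.236). At 100 ng/ml ID2 was 1.77-fold above control (95% interval 1.16 to 2.70, edgeR adjusted p = 0.0575, and 0.0303 with the replicate block). ID4 was called at neither dose, with folds of 1.02 (95% interval 0.621 to 1.68) and 1.01 (0.615 to 1.67).

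Fewer of the 9 genes were called in SOX2-positive cells. At 100 ng/ml none of the 9 genes was called higher and 2 were lower, MSX2 and SMAD6 (edgeR, with 2.69% of all genes higher, 1.53% lower and 4.22% called). MSX2 fell to 8.98 and 4.49 CPM in these cells, against 41.9 and 44.6 CPM in controls, a log2 fold change of -2.69 ± 0.30 (SE, edgeR adjusted p = 0.00152). This call held without any 1 library, with log2 values of -3.26 to -2.27. SMAD6 fell to 15.8 and 15.1 CPM, against 50.3 and 35.1 CPM in controls, a log2 fold change of -1.47 ± 0.25 (SE, edgeR adjusted p = 0.00886). Without replicate 1 or 2 of the SOX2-positive cells at 100 ng/ml or control replicate 1 its adjusted p was 0.09, 0.0933 and 0.0885. With 0 genes called higher at 100 ng/ml, none had an unadjusted p under 0.05 in that direction, and the 2 genes with such a p were the 2 that fell. DESeq2 also called 2 genes.

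At 1000 ng/ml, 1 of the 9 genes was called in SOX2-positive cells, BAMBI (edgeR, with 3.63% of all genes higher, 1.97% lower and 5.6% called). BAMBI had 80.4 and 78.8 CPM there, against 36.5 and 27.1 CPM in controls, a fold of 2.51 with a 95% interval of 1.63 to 3.85 (edgeR adjusted p = 0.0219). The call was lost without replicate 1 (0.116) or replicate 2 (0.0793) of those cells, control replicate 1 (0.0791) or control replicate 2 (0.247). ID2 was 1.90-fold above control (95% interval 1.24 to 2.89, adjusted p = 0.0872, and 0.042 with the replicate block). MSX2 and SMAD6 were no longer called lower, with folds of 0.673 (95% interval 0.439 to 1.03) and 0.737 (0.509 to 1.07), although with only the compared groups fitted MSX2 was called lower (adjusted p = 0.0479). Over the 3 doses, all 5 SOX2-positive libraries lay below both controls for MSX2 and ID4, which 21.2% of all genes did, and above both for none of the 9, against 21.5% of all genes.

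**Figure D3:**
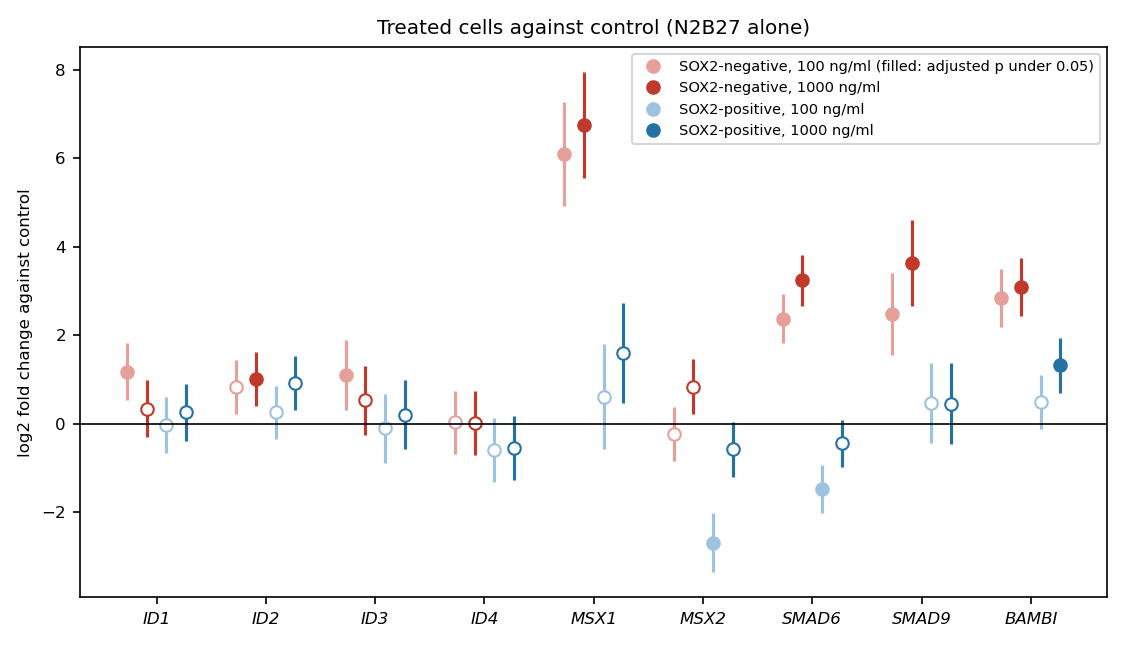
Log2 fold change against control colonies for SOX2-negative and SOX2-positive cells at 100 and 1000 ng/ml WNT3A, with 95% intervals, filled where edgeR's adjusted p was under 0.05. SMAD6 and MSX2 lie below 0 in SOX2-positive cells at 100 ng/ml, while MSX1, SMAD6, SMAD9 and BAMBI lie above 2 in SOX2-negative cells at both doses.

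Levels of several members were ordered by WNT3A dose, and the test across all genes called none of them. In SOX2-negative cells, both libraries at 1000 ng/ml exceeded both at 100 ng/ml for MSX1, MSX2, SMAD6, SMAD9 and BAMBI, 5 of the 9, beside 21.6% of all genes. In SOX2-positive cells, 6 of the 9 did so (ID1, ID2, MSX1, MSX2, SMAD6 and BAMBI), beside 14.2% of all genes. MSX1, MSX2, SMAD6 and BAMBI did so in both gates, 4 of the 9, beside 2.86% of all genes. edgeR called 0 of the 17048 genes in either gate, at an unadjusted p under 0.05 it had 3107 genes in SOX2-negative cells and 294 in SOX2-positive cells, with 4 of the 9 genes in each, and DESeq2 called 309 and 5 genes.

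The widest difference between the doses among the 9 was that of MSX2 in SOX2-positive cells. Its level there was 8.98 and 4.49 CPM at 100 ng/ml, 14.5 CPM at 300 ng/ml, and 31.3 and 26.9 CPM at 1000 ng/ml. At 1000 over 100 ng/ml this was a fold of 4.34 with a 95% interval of 2.75 to 6.83, an unadjusted p = 2.3e-05 and an adjusted p = 0.395 in edgeR. With DESeq2 the adjusted p was 6.48e-08. In SOX2-negative cells MSX2 had 37.9 and 35.9, then 54.7, then 79.0 and 75.6 CPM over the same doses, a fold of 2.09 (95% interval 1.36 to 3.22, edgeR adjusted p = 0.232, DESeq2 adjusted p = 0.0272). SMAD6 had folds of 1.83 in SOX2-negative cells (95% interval 1.27 to 2.65, edgeR adjusted p = 0.245, DESeq2 adjusted p = 0.0381) and 2.04 in SOX2-positive cells (1.396 to 2.97, edgeR adjusted p = 1).

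ID1, ID3 and ID4 had fitted dose values below 0 in SOX2-negative cells (log2 -0.83, -0.58 and -0.01). The level of ID1 there was 530.0 and 881 CPM at 100 ng/ml, 490.2 CPM at 300 ng/ml, and 471 and 320.4 CPM at 1000 ng/ml. The fold of 1000 over 100 ng/ml was 0.561 there (95% interval 0.359 to 0.877, edgeR adjusted p = 0.247) and 1.22 in SOX2-positive cells (0.783 to 1.91, edgeR adjusted p = 1). The difference between the gates in the dose response was tested as an interaction, and 0 of 17048 genes were called by edgeR, with 1349 genes at an unadjusted p under 0.05 and 15 called by DESeq2. ID1 had the interaction value -1.12 on the log2 scale (unadjusted p = 0.02, adjusted p = 0.525) and MSX2 had -1.05 (unadjusted p = 0.024, adjusted p = 0.525). Without replicate 1 of the SOX2-negative cells at 100 ng/ml, which leaves only replicate 2 in that group, the interaction value of ID1 was -1.43. Without the same library, the log2 dose values in SOX2-negative cells were -1.14 for ID1, -0.96 for ID3, 1.62 for SMAD9, 1.12 for MSX2 and 0.82 for SMAD6. For ID1 and ID3 these values rest on replicate 2 at 100 ng/ml, with 881 and 693 CPM. Replicate 1 at that dose had 530.0 CPM of ID1, against 471 and 320.4 CPM at 1000 ng/ml. It had 364 CPM of ID3, which lies between the 439.7 and 267 CPM at 1000 ng/ml. With no filter on low counts, 4 of the 9 genes were called for dose in SOX2-negative cells, beside 1552 of all genes. They were ID1 (edgeR adjusted p = 0.0184), SMAD6 (0.0184), SMAD9 (0.00696) and MSX2 (0.006).

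Set against gene length, the members spanned a wide range of levels. In control colonies ID1 stood at 253 and ID3 at 196 CPM per kilobase of the longest coding transcript, ID4 at 55.5, ID2 at 45.6, MSX2 at 19.3, BAMBI at 16.9, SMAD6 at 11.1, SMAD9 at 0.787 and MSX1 at 0.475. In SOX2-negative cells at 1000 ng/ml the order was ID1 at 321, ID3 at 283, BAMBI at 145, SMAD6 at 106, ID2 at 91.5, ID4 at 56.2, MSX1 at 53.0, MSX2 at 34.5 and SMAD9 at 9.82 CPM per kilobase. ID1 and ID3 led in both groups, and BAMBI and SMAD6 stood above ID2 and ID4 in the SOX2-negative group at 1000 ng/ml. In SOX2-positive cells at 1000 ng/ml BAMBI at 42.4 and SMAD6 at 8.19 CPM per kilobase stood below ID2 at 86.4.

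The likeness of the genes to one another fell into blocks. Over the 12 libraries, Pearson's r of log2 CPM was 0.97 between MSX1 and BAMBI, 0.93 between MSX1 and SMAD6 and 0.91 between SMAD6 and SMAD9, and the gates form separate clusters of points in each of these pairs. ID1 and ID3 went together at 0.92, and at 0.84 without replicate 2 of the SOX2-negative cells at 100 ng/ml. ID2 and ID4 stood at -0.03. These values share libraries and depth and are descriptions without a test.

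**Figure D4:**
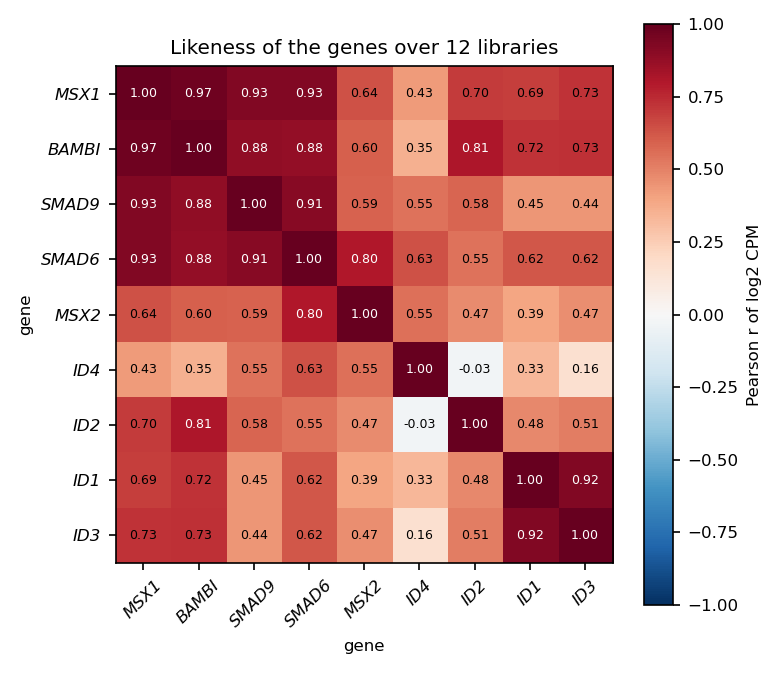
Pearson's r of log2 CPM between each pair of the 9 genes over 12 libraries, with colour from -1 to 1. MSX1, BAMBI, SMAD9 and SMAD6 form the block of highest values, ID1 and ID3 a pair at 0.92, and ID4 has values of -0.03 to 0.63 with the others.

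Among all tested genes, those among the 2 most like each member by the same r over 12 libraries included GPR55 (0.99) and PREX1 (0.99) for MSX1, MESP2 (0.99) for BAMBI, RASGEF1B (0.99) and COCH (0.98) for SMAD6, and C5 (0.99) and GALC (0.99) for SMAD9. For MSX2 they included GADD45A (0.92). The ID genes had PSMD8 (0.98) and MYDGF (0.98) for ID3, MICOS13 (0.97) and HMG20B (0.97) for ID1, PDHB (0.96) and RBM44 (0.96) for ID2, and NTRK3 (0.93) and DGAT2 (0.90) for ID4.

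Around the 9 genes, calls between the gates were more frequent among BMP ligands and other BMP targets than among BMP receptors, antagonists and SMAD relays. Of the 9 ligand genes tested of 12 listed, 6 were higher in SOX2-negative cells and none was lower, with a median log2 fold change of 2.63. Of all genes, 12.9% were called higher and 11.1% lower. BMP2, a ligand that acts in heart and extraembryonic tissue, averaged 254 ± 25.7 CPM in SOX2-negative cells and 6.71 ± 1.09 CPM in SOX2-positive cells (SD, n = 4 each), and 13.6 ± 2.84 CPM in controls (SD, n = 2). Its log2 difference between the gates was 5.24 ± 0.20 (SE, edgeR adjusted p = 4.29e-07). BMP5 and BMP6 were low in both gates, at 8.04 ± 9.08 and 8.56 ± 4.72 CPM in SOX2-negative cells, against 0.274 ± 0.227 and 0.847 ± 0.504 CPM in SOX2-positive cells (SD, n = 4 each). BMP4, named after its values were seen, had 11.6, 21.2, 19.7, 41.4 and 81.1 CPM in SOX2-negative cells, 3.62, 3.88, 3.76, 7.31 and 6.65 CPM in SOX2-positive cells, and 62.1 and 53.0 CPM in controls. It was lower in SOX2-positive cells than in controls, by a log2 fold change of -3.94 at 100 ng/ml and -3.04 at 1000 ng/ml (edgeR adjusted p = 0.000903 and 0.00192).

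Receptors and antagonists were called in both directions, and 1 of 9 relays was called, beside 12.9% of all genes called higher and 11.1% lower. Of 10 receptors and co-receptors, 3 were higher in SOX2-negative cells (ACVRL1, RGMB and BMPR2) and 1 was lower, the type I receptor BMPR1A, with 91.0 ± 23.2 CPM in SOX2-negative cells and 193 ± 20.5 CPM in SOX2-positive cells (SD, n = 4 each, log2 difference -1.11, edgeR adjusted p = 0.000517). Of 14 antagonists tested of 15 listed, 4 were higher and 2 lower, with a median of 0.43. BMPER, which binds BMPs outside the cell, averaged 53.7 ± 38.6 CPM in SOX2-negative cells and 0.803 ± 0.658 CPM in SOX2-positive cells (SD, n = 4 each). The activin and BMP binder FST averaged 24.2 ± 6.34 CPM in SOX2-negative cells and 55.2 ± 5.75 CPM in SOX2-positive cells (SD, n = 4 each). CER1, a Nodal and BMP antagonist of anterior endoderm, was uneven, with 38.8, 3.46, 74.1, 214 and 25.2 CPM in SOX2-negative cells. CHRDL1, a chordin-like BMP binder, was called lower in SOX2-negative cells. Of 9 SMAD relays and their regulators, SMAD7 was the one called, a second inhibitory SMAD, with 120.1 ± 20.3 CPM in SOX2-negative cells and 27.2 ± 17.3 CPM in SOX2-positive cells (SD, n = 4 each, log2 difference 2.23, edgeR adjusted p = 0.000457). Of the 3 E proteins that ID proteins bind, TCF4 was lower in SOX2-negative cells, at 67.6 ± 39.5 CPM, than in SOX2-positive cells, at 115 ± 17.0 CPM (SD, n = 4 each, edgeR adjusted p = 0.0249).

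Other genes known to answer BMP were mostly higher in SOX2-negative cells. Of 11 such genes, 9 were higher in SOX2-negative cells and 1 was lower, with a median log2 difference of 2.37. Among all genes 12.9% were called higher and 11.1% lower between the gates. TBX3, a T-box repressor, averaged 167 ± 71.6 CPM in SOX2-negative cells and 2.61 ± 2.36 CPM in SOX2-positive cells (SD, n = 4 each, log2 difference 6.32, edgeR adjusted p = 6.2e-06). HAND1, a factor of extraembryonic and lateral mesoderm, was higher as well, with 12.6, 28.7, 25.4, 58.8 and 177 CPM in SOX2-negative cells, 0.149, 0.454, 0.190, 0.531 and 5.88 CPM in SOX2-positive cells, and 10.4 and 8.201 CPM in controls. TBX2 was also called higher, at 4.36 ± 4.599 CPM in SOX2-negative cells (SD, n = 4). TFAP2A, a factor of surface ectoderm, neural crest and amnion, was the one lower, with 5.12 ± 2.91 CPM in SOX2-negative cells, 18.1 ± 16.2 CPM in SOX2-positive cells (SD, n = 4 each) and 183 ± 39.9 CPM in controls (SD, n = 2). Against control, the list of other BMP-responsive genes went both ways in SOX2-negative cells. At 100 ng/ml 6 of the 11 were higher and 4 lower, beside 12% and 8.68% of all genes. At 1000 ng/ml 7 were higher and 3 lower, beside 10.7% and 7.1% of all genes. The list's summed level was 395 to 651 CPM in SOX2-negative cells, against 347 to 444 CPM in controls. In SOX2-positive cells 6 of the 11 were lower than control at 100 ng/ml and 5 at 1000 ng/ml, beside 1.53% and 1.97% of all genes. None was higher at either dose, and the list's median log2 fold changes were -3.07 and -1.49. Among the 8 WNT target and feedback genes, 5 were higher in SOX2-negative cells and none was lower, with a median of 2.48, led by NOTUM, SP5 and TNFRSF19. The gates overlapped for AXIN2, with 33.3 to 83.0 CPM in SOX2-negative and 34.9 to 48.3 CPM in SOX2-positive cells. They also overlapped for ZNRF3 (36.5 to 49.8 and 31.6 to 40.8 CPM) and RNF43 (6.81 to 13.1 and 4.99 to 8.69 CPM). TNFRSF19 had 39.9 to 76.9 CPM in SOX2-negative cells, 1.71 to 10.0 CPM in SOX2-positive cells and 29.1 to 39.2 CPM in controls. NOTUM, a secreted WNT inhibitor, averaged 176 ± 59.8 CPM in SOX2-negative cells and 8.23 ± 3.67 CPM in SOX2-positive cells (SD, n = 4 each).

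**Figure D5:**
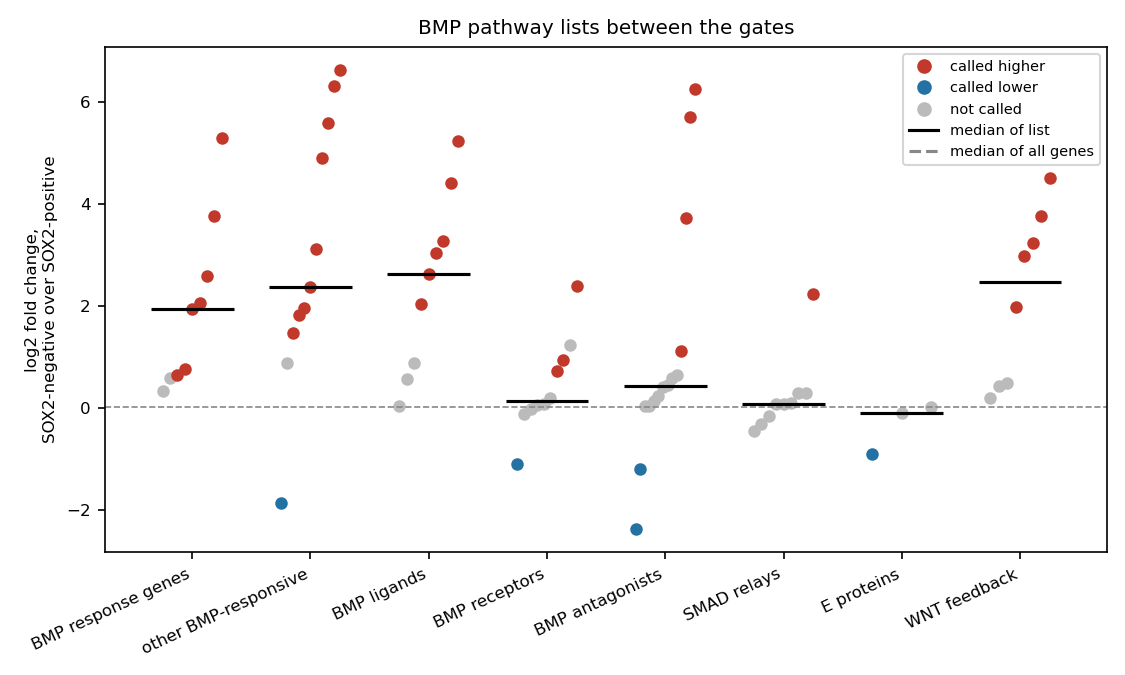
Log2 fold change of SOX2-negative over SOX2-positive cells for each tested gene of the BMP response genes and of 7 related lists, coloured by edgeR's call, with the median of each list as a bar and of all genes as a dashed line. The medians of ligands (2.63), other BMP-responsive genes (2.37) and WNT feedback genes (2.48) lie far above the line, and those of receptors, SMAD relays and E proteins lie near it.

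Marker lists of other cell types differed in how they went between the gates, where 12.9% of all genes were called higher and 11.1% lower in SOX2-negative cells. Lateral mesoderm markers, 7 genes, summed to 150.2 to 432 CPM in SOX2-negative cells, 3.22 to 13.7 CPM in SOX2-positive cells and 17.6 to 23.7 CPM in controls, with HAND2, TBX20 and NKX2-5 at 0 in both controls, and 6 of the 7 were called higher in SOX2-negative cells. GATA4, which endoderm also uses, gave 149, 111, 206, 235 and 162 CPM of that sum in SOX2-negative cells. HAND1, also on the list of other BMP-responsive genes, gave 12.6 to 177 CPM there, and PDGFRA gave 5.90 to 61.0 CPM. NKX2-5 had 1.38 to 12.7 CPM, FOXF1 1.03 to 10.7 CPM, TBX20 0.128 to 4.90 CPM and HAND2 0 to 4.00 CPM in these cells. The 7 amnion markers, of which HEY1 and GATA3 are also on the list of other BMP-responsive genes, summed to 186 to 231 CPM in SOX2-negative cells, 18.3 to 28.7 CPM in SOX2-positive cells and 103 to 126 CPM in controls. Most of that sum in SOX2-negative cells was GATA3, at 140.4 to 179.6 CPM. ISL1 had 17.9 to 36.1 CPM in SOX2-negative cells, at most 1.04 CPM in SOX2-positive cells and at most 2.29 CPM in controls. HEY1 had 8.68 to 24.5 CPM in SOX2-negative cells and at most 7.75 CPM in SOX2-positive cells. IGFBP3 went the other way between the gates, with at most 3.96 CPM in SOX2-negative cells and 5.48 to 23.1 CPM in SOX2-positive cells. It was highest in controls, at 35.3 to 37.3 CPM. GABRP, VTCN1 and TFAP2B were each under 0.4 CPM in SOX2-negative cells, and TFAP2B was highest in controls, at 1.02 to 1.10 CPM. Of the 6 amnion markers tested, 3 were called higher and 2 lower in SOX2-negative cells. Neural crest markers, 6 genes, summed to 15.3 to 44.1 CPM in SOX2-negative cells, 33.5 to 48.0 CPM in SOX2-positive cells and 9.45 to 11.9 CPM in controls, with 2 called higher and 1 lower in SOX2-negative cells. Most of the SOX2-positive sum was FOXD3, at 27.9 to 41.9 CPM, against at most 0.643 CPM in SOX2-negative cells and 0.864 CPM in controls. SNAI2 had 3.85 to 34.9 CPM in SOX2-negative cells and at most 1.54 CPM in SOX2-positive cells. SOX10 had 5.56 to 9.06 CPM in SOX2-negative cells, 3.83 to 5.11 CPM in SOX2-positive cells and 3.86 to 5.82 CPM in controls. What part these cell types have in the levels of the 9 genes was not tested.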

How the data were processed

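RNA was measured in 12 libraries in 7 groups. Poly-A RNA was captured on poly-T beads and copied from random hexamers, per the labels' protocols. The submitters' processing notes name Salmon and GRCh38. The Salmon version, annotation and strand setting are not given in the sources used here. The deposited values are estimated counts for each gene that the authors left unscaled between libraries. Estimated counts were rounded to whole numbers and rows sharing a symbol were summed (37951 identifiers, 35940 symbols). Without a stated strand, reads of overlapping genes cannot be told apart.

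All genes were tested with edgeR 4.0.16 (limma 3.58.1, R 4.3.3) by the quasi-likelihood test on 7 group means over all 12 libraries, with TMM scaling (factors 0.899 to 1.04), filterByExpr (minimum count 10, minimum total 15), Benjamini-Hochberg adjustment over 17048 genes and a threshold of 0.05. The fit had 5 residual degrees of freedom. CPM used TMM-adjusted totals, and r used a prior count of 2. A group has at most 2 libraries, which limits the precision, and the single libraries at 300 ng/ml entered none of the main tests, only the counts of libraries that do not overlap and an alternative that averages 3 doses. DESeq2 1.42.0, another filter, scaling and left-out libraries were alternatives. The fit was also run on simulated data, for which no result is reported here. Coordinates are from GENCODE 29 and promoters from RefSeq, with 9 of 9 members matched. Promoters were drawn with Python 3.11.15 from 250 bases before the start.

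The design's text calls the second set of libraries a repeat of all conditions but the 300 ng/ml one, and the gates of a dose come from the same colonies, so the replicate number was also fitted as a block. Same-numbered libraries deviated from their group means with correlations of -0.06 to 0.22 in 10 pairs of groups, of which 5 exceeded 0.1.

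Genes named beside the members were the up to 3 most changed called genes per list and direction between the gates, and the 2 most alike per member. Some genes that this rule names are not reported here. BMP4, HAND2 and other marker genes named singly were chosen after their values were seen. Members and lists were chosen with earlier results of these data known.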

Additional observations from a re-analysis of the deposited data

Results flagged for a closer look

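The SOX2-negative library at 300 ng/ml WNT3A has no replicate and entered no test against control. In that library 4 genes exceeded 2 times the higher control: MSX1 with 98.9 CPM, against 0.559 and 1.28 CPM in controls, SMAD6 with 363 CPM, against 50.3 and 35.1 CPM, SMAD9 with 36.1 CPM, against 3.71 and 5.09 CPM, and BAMBI with 237 CPM, against 36.5 and 27.1 CPM. These values lie with those at 100 and 1000 ng/ml.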

How the results depend on the processing

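Between the gates, the calls of MSX1, SMAD6, SMAD9, BAMBI and MSX2 held under every alternative run, with edgeR or DESeq2 adjusted p of at most 0.00127, and so did those of MSX1, SMAD6, SMAD9 and BAMBI against control in SOX2-negative cells, with at most 0.0342. Over single-gene values, 1111 kept direction and side of the threshold, 50 lost the call, 42 gained it and 30 changed sign. At 1000 ng/ml against control, members called in SOX2-positive cells were 1, and 3 with DESeq2 (BAMBI, ID2 and MSX1), 3 with no filter (BAMBI, ID2 and MSX1), 2 with the replicate block (BAMBI and ID2) and 3 with only the groups compared (BAMBI, ID2 and MSX2). For dose, 0 members were called in SOX2-negative cells, and 2 with DESeq2 and 4 with no filter. In SOX2-positive cells 0 were called, and 1 with DESeq2 and 2 with no filter.

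All genes called in SOX2-negative cells at 100 ng/ml against control were 3517, and 1797 with only the groups compared. In SOX2-positive cells they were 719 at 100 ng/ml (1360 with DESeq2, 1607 with no filter, 2842 with only the groups compared) and 954 at 1000 ng/ml (1593, 1800 and 2184). For dose they were 0 in SOX2-negative cells (309 with DESeq2, 1552 with no filter, 1 with the block, 1 with only the groups compared), 0 in SOX2-positive cells (5 with DESeq2, 107 with no filter, 1 with identifiers apart) and 0 for the interaction (15, 308 and 1).

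Leaving out 1 library at a time gave 5 to 7 members between the gates, 1 to 2 in SOX2-positive cells at 100 ng/ml, 0 to 2 at 1000 ng/ml, 0 to 5 for dose in SOX2-negative cells (5 without replicate 1 at 100 ng/ml) and 0 to 1 for the interaction. All genes called were 2638 to 6835 between the gates, 1409 to 6997 and 1398 to 4675 in SOX2-negative cells at 100 and 1000 ng/ml, 85 to 1509 and 128 to 1803 in SOX2-positive cells, 0 to 5740 for dose in SOX2-negative cells and 0 to 3797 for the interaction.

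Small log2 values changed sign. ID4 was -0.016 at 100 ng/ml in SOX2-negative cells against control and 0.0438 for dose there with no scaling, and -0.022 at 1000 ng/ml against control and -0.0129 for dose in SOX2-positive cells with the replicate block. ID1 was 0.0418 in SOX2-positive cells at 100 ng/ml with no scaling. With a library left out, values of SOX2-positive cells over control at 100 ng/ml ran from -0.32 to 0.22 for ID1, -0.17 to 0.60 for ID2, -0.47 to 0.20 for ID3 and -0.35 to 1.38 for MSX1, and at 1000 ng/ml from -0.0515 to 0.43 for ID3. In SOX2-negative cells ID4 ran from -0.0636 to 0.11 at 100 ng/ml and -0.33 to 0.27 at 1000 ng/ml. Dose values ran from -0.34 to 0.26 for ID4 and -0.00283 to 0.40 for ID2 in SOX2-negative cells, and from -0.60 to 0.49 for ID4 and -0.29 to 0.21 for SMAD9 in SOX2-positive cells. Interaction values ran from -0.51 to 0.59 for ID4, -1.29 to 0.29 for MSX1 and -0.35 to 0.0857 for SMAD6.

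The replicate block changed 4 member calls, ID3 between the gates (adjusted p = 0.0514), ID3 and ID2 in SOX2-negative cells at 100 ng/ml (0.0532 and 0.0303) and ID2 in SOX2-positive cells at 1000 ng/ml (0.042). Averaging all 3 doses gave ID3 0.0828 and ID4 0.0319 between the gates, and DESeq2 gave ID4 0.0493. At 100 ng/ml in SOX2-negative cells, fitting only the compared groups gave ID1 0.0715 and ID3 0.103. For these changes the cause was not tested.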
